A study of Mus musculus with 12 samples.

Results

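Transcripts of 10 genes that carry glucose to lactate and out of the cell were examined in fat cells and stromal vascular cells of 2 mouse fat depots. The genes are Hk2, Pfkl, Pfkp, Aldoa, Gapdh, Pgk1, Eno1, Pkm, Ldha and Slc16a3. They were chosen by gene symbol, each symbol matched exactly 1 feature, and all 10 were found among the 24890 features of each table. The rule uses no expression value, but the list was chosen with earlier results of these data known. The study profiled male C57BL/6J mice, 18 weeks old, that received no treatment and were fed normal chow. Epididymal fat (EAT), a visceral depot, and inguinal fat (IAT), a subcutaneous depot, were digested with collagenase I and separated into adipocytes and stromal vascular cells (SVCs), a mixture of progenitors, blood vessel cells and immune cells. RNA was sequenced from 3 libraries of each combination of depot and fraction, which makes 4 groups and 12 libraries. The labels do not say whether the 3 libraries of a group came from separate mice or from pooled fat, so p-values measure only the spread between these libraries.

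Glycolysis splits glucose into pyruvate in the cytosol and yields ATP and NADH. Lactate dehydrogenase reduces pyruvate to lactate and regenerates NAD+, and monocarboxylate transporters move lactate with a proton across the plasma membrane. In adipocytes glucose is taken up under insulin control and also supplies glycerol phosphate for triglyceride and acetyl units for fatty acids, and adipose tissue is known to release lactate. Several steps have isozymes encoded by separate genes, which differ in regulation and in the tissues that use them.

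Promoters of the 10 genes were looked at because most of them are textbook targets of the hypoxia-inducible factor HIF-1, whose binding sites hold the core ACGTG or GCGTG. All 10 genes matched an entry of the RefSeq promoter table (build GRCm38.p6), and the 250 bases before the start site nearest to the 5′ end of the gene model were searched on both strands. ACGTG or GCGTG stood in 8 of the 10 windows, against 38.6% of all 32851 windows of the same length. ACGTG alone stood in 4 of them, those of Hk2, Pgk1, Ldha and Slc16a3, against 16.6% of all windows. The palindrome CACGTG, which holds ACGTG on each strand and so counts as a pair of matches, stood only in the Ldha window among the 10, against 6.02% of all windows. GGGCGG, another GC-rich motif searched in the same way, stood in 7 of the 10 windows, against 32.7% of all windows. An excess over all windows was thus not particular to ACGTG or GCGTG. A match is a description of the letters and shows no binding. Windows of 3 genes are shown in the direction of transcription, those of Hk2 and Ldha, which were higher in adipocytes, and that of Slc16a3, which was higher in SVCs, with ACGTG and its reverse complement in capitals. The windows lie at chr6:82774455-82774704, minus strand, at chr7:46845554-46845803, plus strand and at chr11:120948817-120949066, plus strand. The start site used for Slc16a3 lies 583 bases downstream of the 5′ end of the gene model, so its window lies within the model. Those of Gapdh and Pkm lie 694 and 208 bases downstream of their 5′ ends. The Gapdh window lies within its model and the Pkm window mostly does.
Hk2: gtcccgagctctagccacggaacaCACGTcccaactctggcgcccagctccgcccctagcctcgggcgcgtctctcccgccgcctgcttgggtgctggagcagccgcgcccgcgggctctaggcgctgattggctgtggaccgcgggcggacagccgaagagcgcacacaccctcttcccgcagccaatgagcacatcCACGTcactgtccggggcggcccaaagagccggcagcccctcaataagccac
Ldha: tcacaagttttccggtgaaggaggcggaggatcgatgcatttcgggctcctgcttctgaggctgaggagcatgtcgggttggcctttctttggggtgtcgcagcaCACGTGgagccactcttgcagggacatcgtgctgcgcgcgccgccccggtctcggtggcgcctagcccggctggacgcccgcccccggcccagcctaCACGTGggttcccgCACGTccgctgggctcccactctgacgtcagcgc
Slc16a3: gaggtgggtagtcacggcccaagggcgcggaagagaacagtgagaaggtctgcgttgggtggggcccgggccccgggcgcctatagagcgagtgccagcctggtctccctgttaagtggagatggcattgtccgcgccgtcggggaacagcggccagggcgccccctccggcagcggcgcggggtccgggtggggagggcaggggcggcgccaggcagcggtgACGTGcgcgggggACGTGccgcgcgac
Each of the 3 windows carried ACGTG more than once, with 5 matches for Ldha, 2 for Hk2 and 2 for Slc16a3. The motif therefore stood in RefSeq promoter windows of genes that differed between the fractions in opposite directions.

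Levels are in FPKM, fragments scaled by transcript length and by mapped fragments of the library, and can be compared between genes as levels per length. The tables give no counts, and the width of their confidence bounds placed the depth of the other libraries between 0.776 and 1.31 times that of the first EAT adipocyte library. For the 9 enzymes the bound lay 2.18% to 7.86% above the value in every library, so counting error was small. The fractions carried the markers of their names. The 8 adipocyte markers summed to 32510 to 43880 FPKM in the adipocyte libraries and to 4471 to 7303 FPKM in SVCs. Most of the SVC sum was Fabp4, with a mean of 4729 FPKM in EAT SVCs and 6626 FPKM in IAT SVCs. Marker by marker, the adipocyte level was 478.5% to 57820% of the SVC level in EAT, with a median of 26400%. In IAT it was 416.9% to 15960%, with a median of 9672%. The 7 macrophage markers summed to 432.6 to 551.9 FPKM in EAT adipocytes, 74.8 to 111.4 in IAT adipocytes, 3929 to 4122 in EAT SVCs and 2098 to 2308 in IAT SVCs. Markers of each fraction were thus read in the other too, with Adipoq at means of 7.18 FPKM in EAT SVCs and 21.7 FPKM in IAT SVCs. Whether they came from carried-over RNA or from the cells of the fraction itself was not tested. The first EAT adipocyte library stood apart, with a correlation of log2 values to the other libraries of its group of 0.982 and 0.985, against 0.993 to 0.996 for all other pairs of libraries within a group. In such bulk samples fewer cells of a type and less RNA per cell cannot be told apart.

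**Figure D1:**
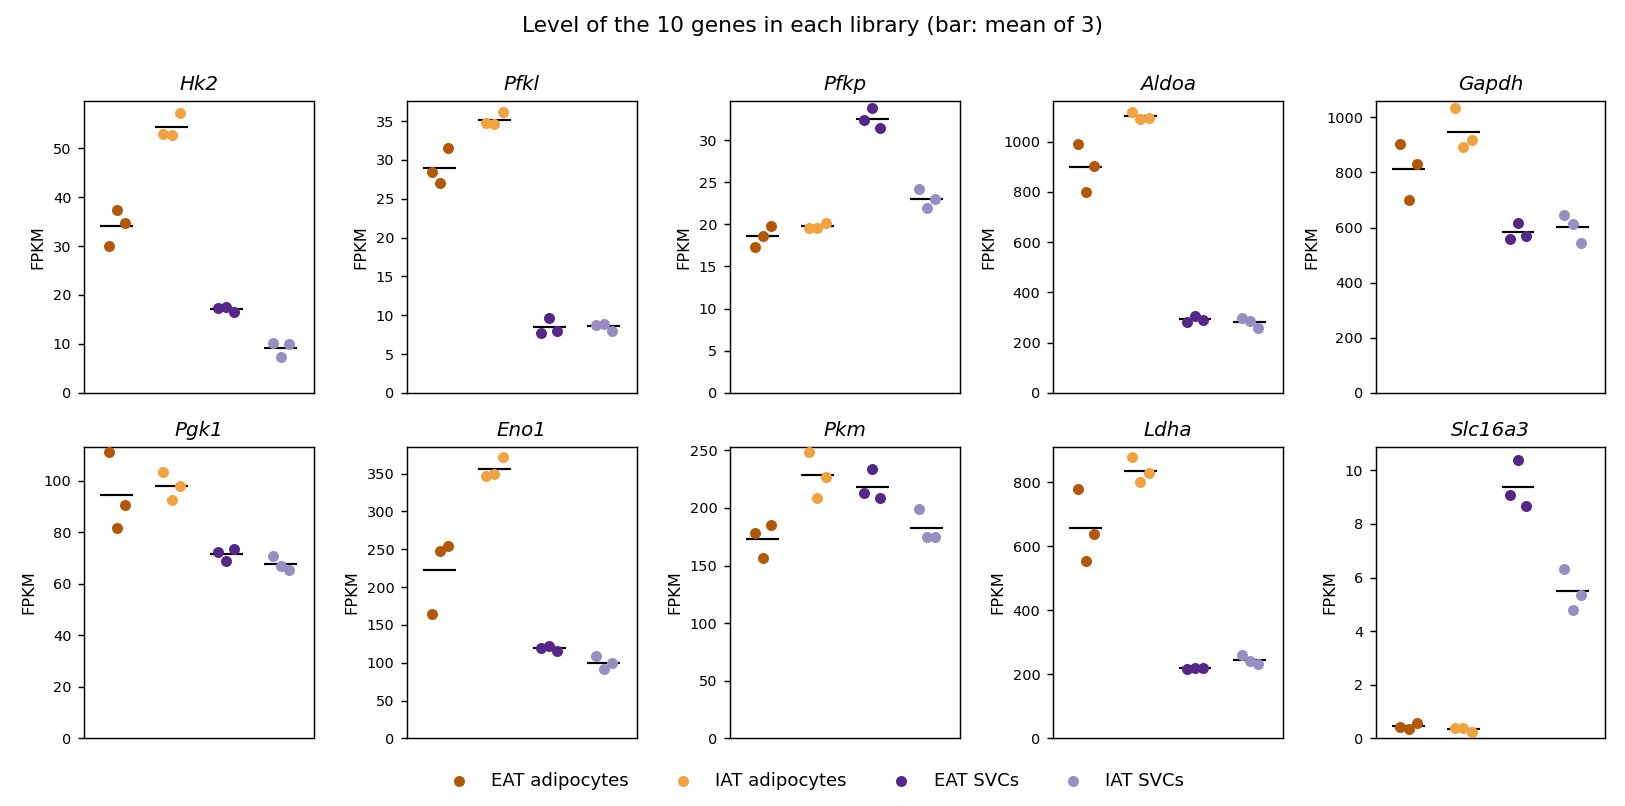
FPKM of each of the 10 genes in the 12 libraries, on a linear axis from 0 for each gene, with points for libraries and a bar for the mean of 3. Hk2, Pfkl, Aldoa, Eno1 and Ldha lie higher in adipocytes of both depots than in SVCs, whereas Slc16a3 lies under 1 FPKM in all 6 adipocyte libraries.

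On the FPKM scale adipocytes and SVCs differed at every gene of the list. The calls of Pkm in both depots and of Pfkp in IAT depended on the scaling. In EAT 7 of the 10 genes were higher in adipocytes and 3 were lower, by limma on log2(FPKM + 1) with Benjamini-Hochberg adjusted p under 0.05 over 13175 tested features. In IAT 8 were higher and 2 were lower. Slc16a3, counted as lower in both depots, passed the filter on low values only through its SVC libraries. Of all tested features 31.1% were higher and 52.7% lower in EAT adipocytes, and 29.8% were higher and 53.9% lower in IAT adipocytes. The median log2 difference of the 10 genes was 0.67 in EAT and 1.21 in IAT, against -0.31 and -0.34 over all features. Since the median feature was lower in adipocytes, rescaling libraries by median of ratios moved the share of higher calls from 37.1% to 50.1% of all calls in EAT and from 35.6% to 50% in IAT. All fold changes below are ratios of mean FPKM, and all log2 differences are on the log2(FPKM + 1) scale.

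**Figure D2:**
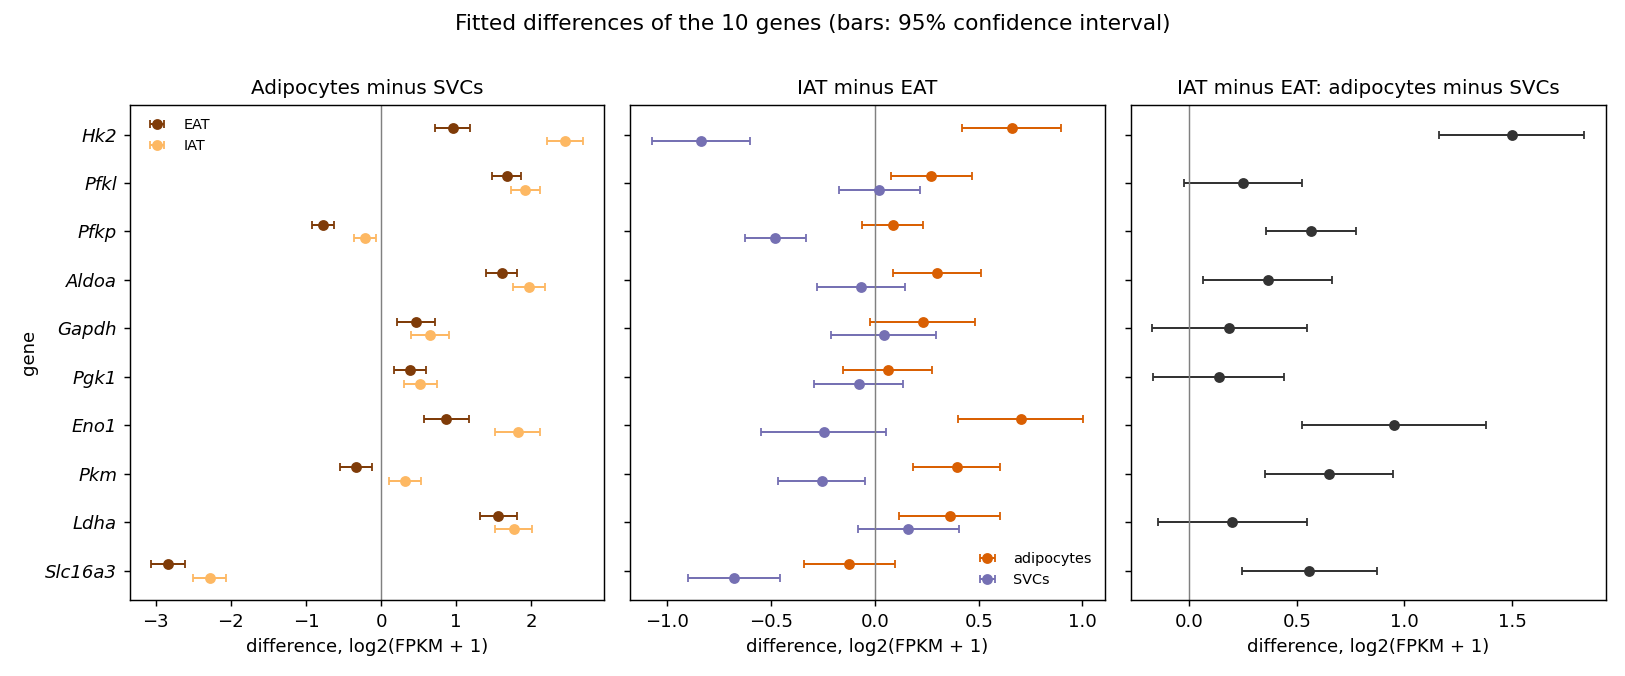
Fitted log2(FPKM + 1) differences of the 10 genes with 95% confidence intervals, for adipocytes minus SVCs in each depot, IAT minus EAT in each fraction, and the difference between these depot differences. Intervals for Pkm lie on opposite sides of 0 in EAT and IAT in the left panel, and those for Hk2 lie on opposite sides of 0 for adipocytes and SVCs in the middle panel.

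Hk2 encodes hexokinase 2, the insulin-responsive enzyme that phosphorylates glucose on entry, and lies on chromosome 6 from 82725027 to 82774454. In EAT adipocytes Hk2 measured 30.1, 37.4 and 34.8 FPKM, and in IAT adipocytes 52.9, 52.7 and 57.1 FPKM. In EAT SVCs it measured 17.3, 17.5 and 16.4 FPKM, and in IAT SVCs 10.2, 7.40 and 9.99 FPKM. All 4 groups were separate from each other, with IAT at the top among adipocytes and at the bottom among SVCs. Adipocytes exceeded SVCs 2.00-fold in EAT, a log2 difference of 0.95 with a limma adjusted p of 2.98e-06. In IAT they exceeded SVCs 5.90-fold, a log2 difference of 2.45 with a limma adjusted p of 2.23e-10.

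Hk2 was also the hexokinase that set adipocytes apart from SVCs in composition. Of the summed FPKM of Hk1, Hk2, Hk3 and Hkdc1, Hk2 held 85.98% ± 1.2 (SD, n = 3) in EAT adipocytes and 90.9% ± 0.33 (SD, n = 3) in IAT adipocytes. In SVCs its share was 33.5% ± 1.7 in EAT and 24.96% ± 2.1 in IAT. Hk1, the broadly expressed isozyme, held 46.1% ± 1.1 of the sum in EAT SVCs and 58.9% ± 1.8 in IAT SVCs, and 10.5% ± 1.6 and 8.61% ± 0.21 in the adipocytes. Hk3, an isozyme of myeloid cells, held 19.9% in EAT SVCs and 15.9% in IAT SVCs, and 3.43% and 0.517% in EAT and IAT adipocytes. The summed hexokinase level differed far less than the composition. It was 39.7 ± 4.6 FPKM in EAT adipocytes, 59.7 ± 2.7 in IAT adipocytes, 51.1 ± 3.8 in EAT SVCs and 36.7 ± 3.8 in IAT SVCs. Shares are given as descriptions, with no test.

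**Figure D3:**
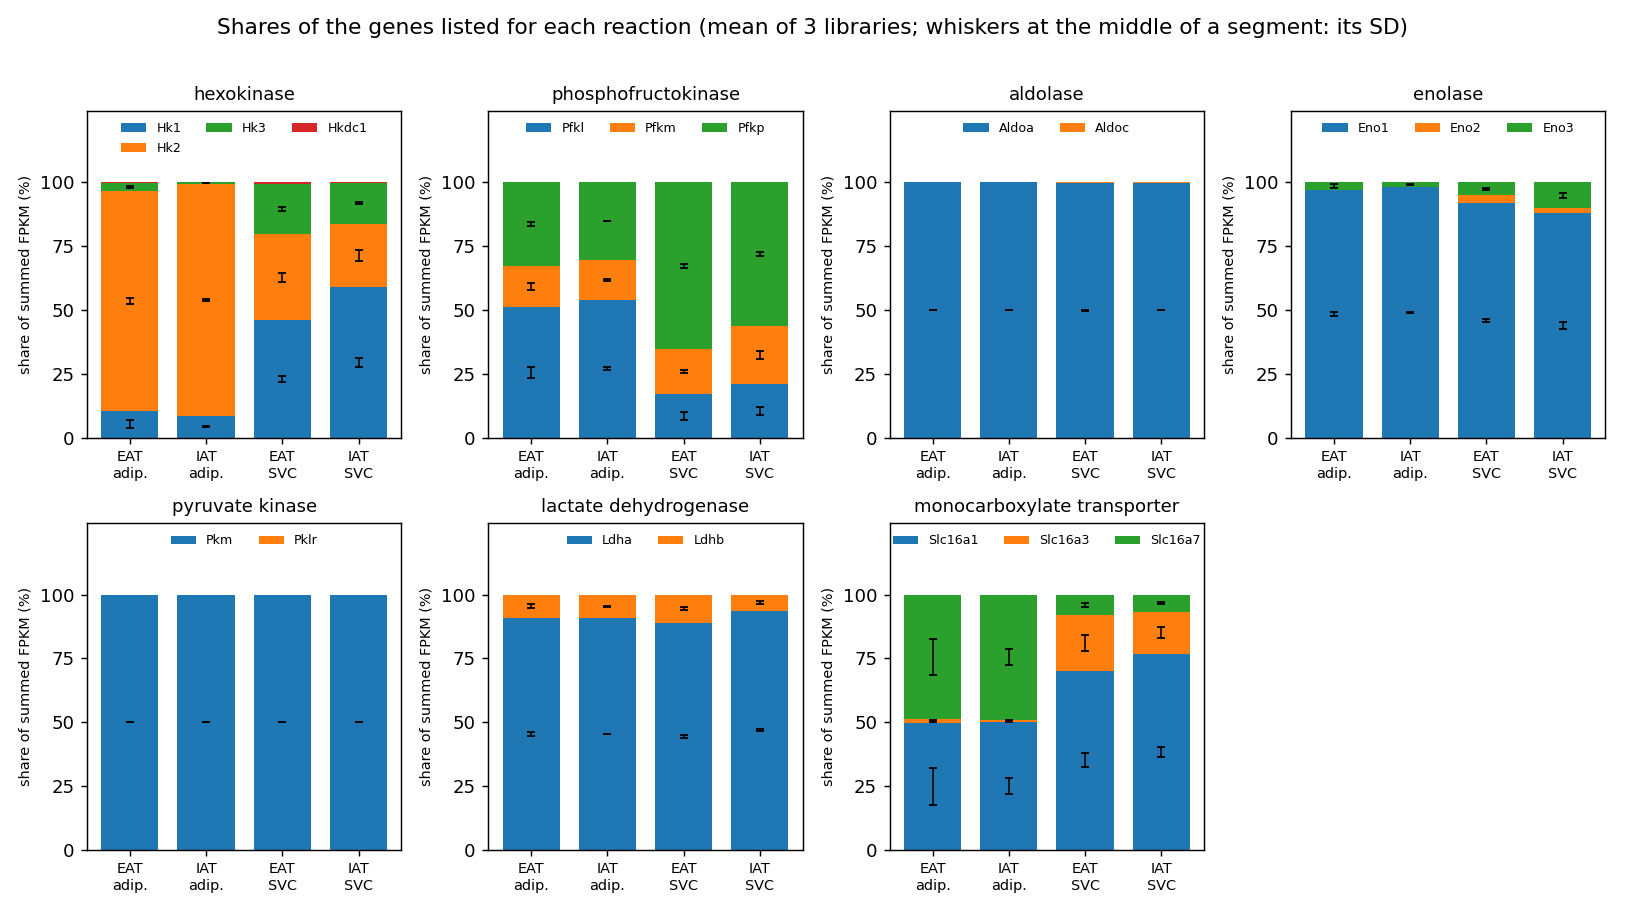
Share of each gene in the summed FPKM of the genes listed for its reaction, in percent, as the mean of 3 libraries, with the SD as a whisker at the middle of each segment of a gene that reaches 5%. Hk2 takes over 85% of hexokinase in adipocytes and under 34% in SVCs, and Pfkl and Pfkp change places between the fractions.

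Phosphofructokinase commits sugar to glycolysis, and its liver-type and platelet-type genes moved in opposite directions. Pfkl, the liver type, lies on chromosome 10 from 77986949 to 78009796. It measured 28.4, 27.0 and 31.6 FPKM in EAT adipocytes, 34.8, 34.6 and 36.2 in IAT adipocytes, 7.70, 9.70 and 7.92 in EAT SVCs and 8.79, 8.91 and 7.95 in IAT SVCs. Adipocyte and SVC libraries of Pfkl were far apart, and the SVCs of both depots overlapped. Adipocytes exceeded SVCs 3.44-fold in EAT and 4.11-fold in IAT, log2 differences of 1.67 and 1.92 with limma adjusted p of 1.31e-09 and 3.26e-10.

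Pfkp, the platelet type, lies on chromosome 13 from 6579874 to 6648771. It measured 17.3, 18.6 and 19.8 FPKM in EAT adipocytes, 19.6, 19.6 and 20.1 in IAT adipocytes, 32.4, 33.8 and 31.4 in EAT SVCs and 24.2, 21.9 and 23.0 in IAT SVCs. The EAT SVCs were the highest and the adipocytes of both depots overlapped. Adipocytes were lower than SVCs by a log2 difference of -0.78 in EAT, with a limma adjusted p of 1.89e-07. In IAT the difference was -0.21, with a limma adjusted p of 0.0114. That IAT difference turned to 0.20 with a limma adjusted p of 0.0104 under median-of-ratios scaling, and it was -0.17 with a limma adjusted p of 0.0503 without the first IAT SVC library, so its direction depends on the scaling. Pfkl held 51.2% ± 2.0 of the summed phosphofructokinase level in EAT adipocytes and 54.1% ± 0.45 in IAT adipocytes, against 16.9% ± 1.4 and 20.9% ± 1.7 in SVCs (SD, n = 3). Pfkp held 32.8% and 30.4% in the adipocytes and 65.4% and 56.2% in the SVCs of EAT and IAT. Pfkm, the muscle type, varied least, from 15.5% in IAT adipocytes to 22.9% in IAT SVCs. A high share of Pfkl thus went with adipocytes and a high share of Pfkp with SVCs in both depots.

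The abundant transcripts of aldolase A and lactate dehydrogenase A were both higher in adipocytes than in SVCs. Aldoa, which cleaves fructose bisphosphate into trioses, lies on chromosome 7 from 126795234 to 126800447. It measured 990.1, 800.3 and 903.9 FPKM in EAT adipocytes, 1119, 1092 and 1093 in IAT adipocytes, 283.3, 307.9 and 289.6 in EAT SVCs and 298.3, 284.6 and 259.3 in IAT SVCs. Every adipocyte library exceeded every SVC library, and IAT adipocytes lay above EAT adipocytes. Adipocytes exceeded SVCs 3.06-fold in EAT and 3.92-fold in IAT, with log2 differences of 1.61 and 1.97 and limma adjusted p of 4.83e-09 and 6.20e-10. Aldoa held at least 99.56% of the sum of Aldoa and Aldoc in every library, so Aldoc added almost nothing.

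Ldha, which makes lactate from pyruvate, lies on chromosome 7 from 46845804 to 46855627. It measured 778.5, 554.6 and 639.0 FPKM in EAT adipocytes, 879.1, 802.1 and 830.7 in IAT adipocytes, 218.4, 218.7 and 221.6 in EAT SVCs and 259.8, 243.4 and 234.0 in IAT SVCs. The adipocyte and SVC libraries did not overlap, and the EAT adipocyte libraries were the most spread. Adipocytes exceeded SVCs 2.99-fold in EAT and 3.41-fold in IAT, with log2 differences of 1.56 and 1.76 and limma adjusted p of 2.58e-08 and 7.61e-09. Ldha held 90.8% ± 0.71 of the lactate dehydrogenase sum in EAT adipocytes, 90.6% ± 0.14 in IAT adipocytes, 88.9% ± 0.48 in EAT SVCs and 93.7% ± 0.48 in IAT SVCs. Ldhb, the heart-type subunit gene, was higher in adipocytes too, at 66.1 ± 7.9 and 86.6 ± 4.1 FPKM in EAT and IAT adipocytes against 27.5 ± 1.5 and 16.6 ± 1.1 FPKM in the SVCs. Lactate dehydrogenase transcripts were therefore mostly Ldha in all 4 groups.

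Eno1 encodes enolase 1, which makes phosphoenolpyruvate, and lies on chromosome 4 from 150237197 to 150248873. It measured 164.2, 248.3 and 254.3 FPKM in EAT adipocytes, 347.1, 349.2 and 371.6 in IAT adipocytes, 118.9, 122.2 and 115.5 in EAT SVCs and 108.3, 92.3 and 99.9 in IAT SVCs. The groups did not overlap, and the first EAT adipocyte library was lower than the others of its group. Adipocytes exceeded SVCs 1.87-fold in EAT, a log2 difference of 0.87 with a limma adjusted p of 6.39e-05, and 3.55-fold in IAT, a difference of 1.82 with a limma adjusted p of 4.84e-08. The Eno1 value is uncertain because the tables list a second model, Eno1b, over the same stretch of chromosome 4, from 150237324 to 150248873. The Eno1b model took 16.7% to 54.8% of the sum of both in adipocytes, with the highest share in the first EAT adipocyte library, and 17.7% to 33.8% in SVCs. Summed, both models gave 337.4 ± 35 FPKM in EAT adipocytes, 505.2 ± 13 in IAT adipocytes, 148.9 ± 5.6 in EAT SVCs and 132.3 ± 8.8 in IAT SVCs. On the sum the fraction differences were 1.17 in EAT and 1.93 in IAT, with limma adjusted p of 5.02e-08 and 3.26e-10. The spread among EAT adipocytes was smaller for the sum than for Eno1 alone. A further Eno1b entry, on chromosome 18, was left out of the sum. Its mean was 30.3 FPKM in EAT adipocytes, 42.0 in IAT adipocytes, 12.2 in EAT SVCs and 11.6 in IAT SVCs.

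**Figure D4:**
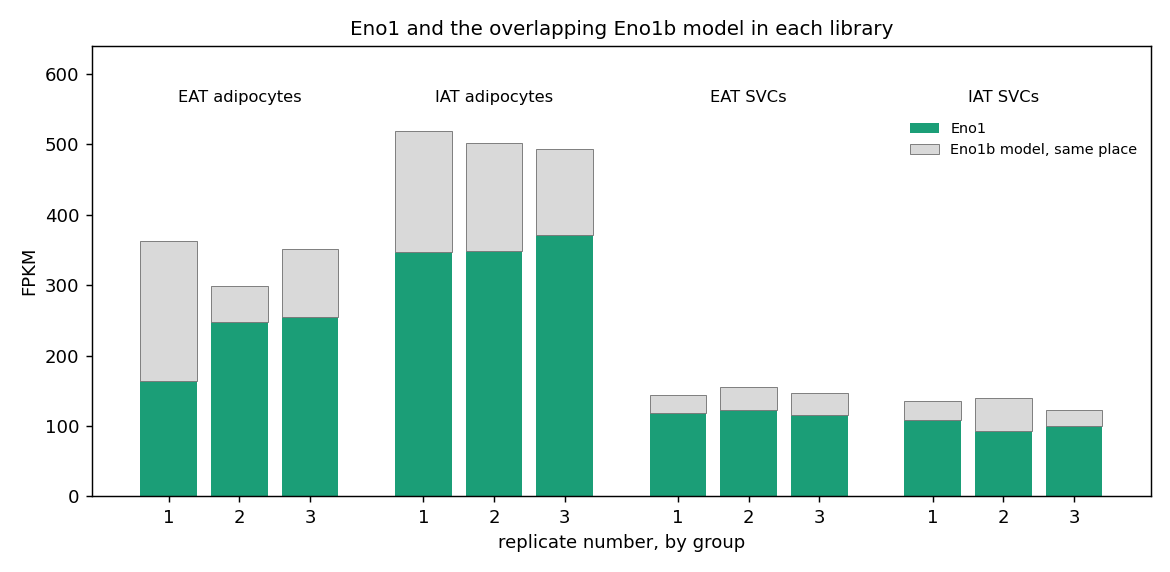
FPKM of Eno1 and of the overlapping Eno1b model, stacked, in each of the 12 libraries by replicate number within group. The first EAT adipocyte library has 164.2 FPKM for Eno1 and 199.0 for the Eno1b model, and the stacked total of 363.3 is the highest of its group.

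Gapdh and Pgk1, the enzymes that capture the first NADH and ATP of the lower pathway, differed less. Gapdh, on chromosome 6 from 125161852 to 125166467, measured 902.1, 699.2 and 830.8 FPKM in EAT adipocytes, 1034, 891.7 and 918.0 in IAT adipocytes, 559.8, 616.3 and 570.5 in EAT SVCs and 646.4, 611.5 and 544.6 in IAT SVCs. Adipocyte libraries lay above SVC libraries, and the depots overlapped within each fraction. Adipocytes exceeded SVCs 1.39-fold in EAT and 1.58-fold in IAT, log2 differences of 0.47 and 0.66 with limma adjusted p of 0.00221 and 0.000162. Pgk1, on chromosome X from 106187100 to 106203699, measured 110.9, 81.7 and 90.7 FPKM in EAT adipocytes, 103.2, 92.6 and 97.8 in IAT adipocytes, 72.3, 68.7 and 73.5 in EAT SVCs and 70.8, 67.0 and 65.4 in IAT SVCs. Its pattern was that of Gapdh at a lower level, with fractions apart and depots overlapping. Adipocytes exceeded SVCs 1.32-fold in EAT and 1.44-fold in IAT, log2 differences of 0.39 and 0.52 with limma adjusted p of 0.00282 and 0.000279. Mouse Gapdh, Pgk1, Eno1, Aldoa and Ldha have processed copies in the genome, and how reads shared with them were assigned is not given in the sources used here.

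Pkm encodes the pyruvate kinase of most tissues, and the tables give 1 value for its M1 and M2 splice forms together. It lies on chromosome 9 from 59656368 to 59679375. Pkm measured 178.0, 156.7 and 185.6 FPKM in EAT adipocytes, 248.6, 208.8 and 227.2 in IAT adipocytes, 212.8, 233.5 and 208.3 in EAT SVCs and 198.9, 174.8 and 174.4 in IAT SVCs. Adipocytes were the lower fraction in EAT and the higher fraction in IAT. The log2 difference between adipocytes and SVCs was -0.33 in EAT with a limma adjusted p of 0.00646, and 0.32 in IAT with a limma adjusted p of 0.00822. The EAT value became 0.06 with a limma adjusted p of 0.625 under median-of-ratios scaling, and the IAT value lost its call under quantile scaling, at 0.16 with a limma adjusted p of 0.143. Pklr, the liver and red cell gene, was listed at 0 in all libraries outside EAT SVCs, where it held 0.0618% of the sum.

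Slc16a3 encodes MCT4, a monocarboxylate transporter of low lactate affinity that is known from cells with high glycolytic flux, and it went the other way from most of the enzymes. It lies on chromosome 11 from 120948484 to 120959000. Slc16a3 measured 0.434, 0.345 and 0.575 FPKM in EAT adipocytes, 0.382, 0.392 and 0.224 in IAT adipocytes, 9.10, 10.4 and 8.67 in EAT SVCs and 6.33, 4.81 and 5.34 in IAT SVCs. The SVC libraries were all higher than the adipocyte libraries, and EAT SVCs were higher than IAT SVCs. Adipocytes were 20.8-fold lower than SVCs in EAT and 16.5-fold lower in IAT, with log2 differences of -2.84 and -2.28 and limma adjusted p of 3.03e-11 and 2.22e-10. The filter on low values favoured a lower adipocyte value here, since the gene passed it only through its SVC libraries. Its confidence bound lay 38.1% to 59.5% above the value in adipocytes, so the adipocyte level is imprecise.

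The adipocyte level of Slc16a3 was 4.81% of the SVC level in EAT and 6.06% in IAT. The 7 macrophage markers stood at 10.65% to 13.85% of their SVC level in EAT adipocytes, with a median of 12.7%, and at 3.47% to 6.26% in IAT adipocytes, with a median of 4.01%. The 6 fibroblast and progenitor markers stood at a median of 3.38% in EAT and 3.33% in IAT, and the 5 endothelial markers at 16.95% and 20.4%. The part of SVC RNA in the adipocyte level of Slc16a3 was not tested. By the same measure Hk2 in adipocytes stood at 199.7% of its SVC level in EAT and 590.2% in IAT. Among the monocarboxylate transporter genes Slc16a1, Slc16a3 and Slc16a7, Slc16a3 held 1.55% ± 0.39 of the sum in EAT adipocytes, 1.00% ± 0.30 in IAT adipocytes, 21.6% ± 3.1 in EAT SVCs and 16.4% ± 2.2 in IAT SVCs (SD, n = 3). Slc16a7, which encodes the high-affinity MCT2, held 48.9% and 49.1% in EAT and IAT adipocytes and 8.15% and 6.80% in the SVCs. Slc16a1, which encodes the widely expressed MCT1, held 49.5% and 49.9% in EAT and IAT adipocytes and 70.2% and 76.8% in the SVCs.

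Laid out in pathway order, the summed levels were uneven. Hexokinase and phosphofructokinase were the lowest enzyme steps in all 4 groups, at 36.7 to 65.0 FPKM, and the transporters were lower still in each group, at 29.2 to 43.55 FPKM. Aldolase, glyceraldehyde phosphate dehydrogenase and lactate dehydrogenase were the 3 highest steps in each group. In adipocytes aldolase reached 110.8% and 116.2% of Gapdh in EAT and IAT, and in SVCs 50.6% and 46.8%. Lactate dehydrogenase reached 89.2% and 97.5% of Gapdh in the adipocytes, and 42.4% and 43.7% in the SVCs. Relative to Gapdh, then, aldolase and lactate dehydrogenase transcripts were both higher in adipocytes of the 2 depots than in SVCs.

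**Figure D5:**
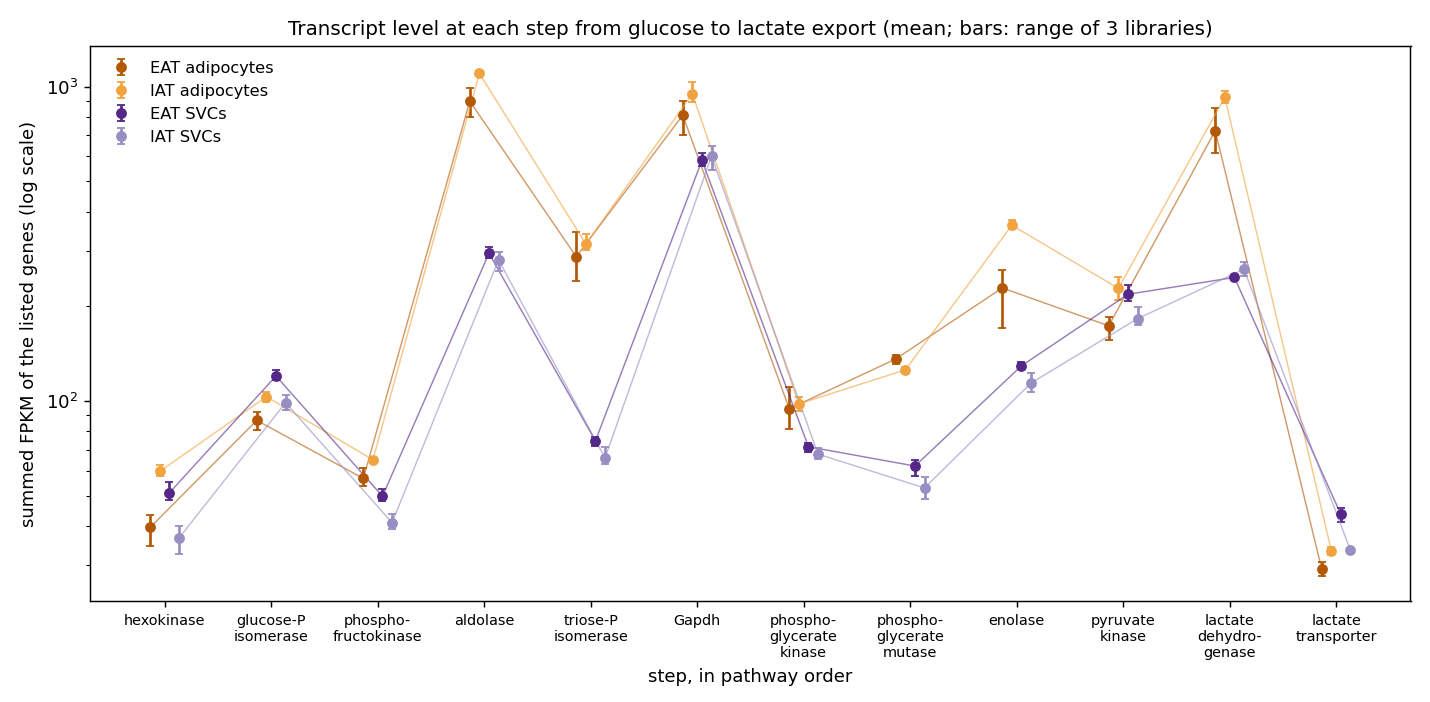
Summed FPKM of the genes listed for each step from hexokinase to the lactate transporters, on a log axis, with points for group means and bars for the range of 3 libraries. The adipocyte groups lie above the SVC groups at phosphofructokinase, at every step from aldolase to enolase and at lactate dehydrogenase. The 4 groups lie close together at glucose phosphate isomerase and pyruvate kinase. The enolase step leaves out the Eno1b models.

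The depots were then compared within adipocytes. In IAT adipocytes 6 of the 10 genes were higher than in EAT adipocytes by limma and 0 were lower, also 0 at an unadjusted p under 0.05, where 10.3% of all tested features were higher and 27.3% lower. The median log2 difference of the 10 genes was 0.29, against -0.10 over all features. Median-of-ratios scaling moved the share of higher calls among all features from 27.5% to 49.1%. Hk2 was 1.59-fold higher in IAT, with a log2 difference of 0.66 (SE 0.11) and a limma adjusted p of 0.000526. Eno1 was 1.60-fold higher, with a log2 difference of 0.70 (SE 0.14) and a limma adjusted p of 0.00183, and 0.59 with a limma adjusted p of 0.000277 for the sum with Eno1b. Pkm was 1.32-fold higher, with a log2 difference of 0.39 and a limma adjusted p of 0.00701. These 3 genes act at the entry of glucose and at the last steps before pyruvate. Libraries of the depots did not overlap for any of the 6 called genes. The share of all tested features without overlap is not given here, so this only describes these genes.

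Ldha, Aldoa and Pfkl were higher in IAT adipocytes by 1.27-fold, 1.23-fold and 1.21-fold, with limma adjusted p of 0.0236, 0.0296 and 0.0301. Each of these 3 calls was lost when any of several single libraries was left out, with limma adjusted p from 0.0585 to 0.105. With only the adipocyte libraries in the fit, Aldoa and Ldha lost their calls too, with limma adjusted p of 0.108 and 0.106, and Pfkl lost its call with TPM, at 0.0943. The count of higher genes fell to 3 when the second EAT adipocyte library, the first IAT adipocyte library or the third IAT adipocyte library was left out, and without the first EAT adipocyte library it was 8. Gapdh, at a log2 difference of 0.23 with a limma adjusted p of 0.140, Pgk1 at 0.06 with 0.662, Pfkp at 0.09 with 0.343 and Slc16a3 at -0.12 with 0.372 did not pass the test. The 95% confidence intervals ran from -0.02 to 0.48 for Gapdh, from -0.15 to 0.28 for Pgk1, from -0.06 to 0.23 for Pfkp and from -0.34 to 0.10 for Slc16a3. Some of these gained a call under other settings. Under median-of-ratios scaling Pfkp was higher in IAT adipocytes by 0.22 with a limma adjusted p of 0.017, and Gapdh by 0.37 with 0.0482. Gapdh was also called with array weights, at 0.37 with a limma adjusted p of 0.0184. Without the first EAT adipocyte library Gapdh was called at 0.31 with a limma adjusted p of 0.026, and Pgk1 at 0.18 with 0.0474.

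Other cell types and handling moved along with this depot contrast. All 7 macrophage markers were lower in IAT adipocytes, with a median log2 difference of -2.17. Of the 8 genes of the tissue dissociation response, 7 were higher in IAT adipocytes, with a median of 1.16 and a sum of 3401 to 3706 FPKM against 2246 to 2640 FPKM in EAT adipocytes. Of the 8 adipocyte markers 1 was higher and 4 were lower. All 4 mesothelium markers were lower, with a median of -2.24, and all 4 Schwann cell markers were higher, with a median of 1.07. Of the 6 fibroblast and progenitor markers 4 were higher and 1 was lower, and of the 4 B cell markers 3 were higher. The 6 red blood cell markers included 3 that were higher. The part of these shifts in the levels of Hk2, Eno1 and Pkm was not tested.

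Among SVCs few of the genes passed the test between depots. In IAT SVCs 0 of the 10 genes were higher by limma, also 0 at an unadjusted p under 0.05, and 3 were lower, where 14% of all tested features were higher and 26.2% lower. The share of lower genes was thus near that of all features. The highest log2 difference was 0.16, for Ldha, with a 95% confidence interval from -0.08 to 0.40, and Ldha was called with quantile scaling, at 0.25 with a limma adjusted p of 0.00597. The median log2 difference of the 10 genes was -0.16, against -0.06 over all features, and median-of-ratios scaling moved the share of higher calls among all features from 34.8% to 49.2%. Hk2 was lower in IAT SVCs by a log2 difference of -0.84 (SE 0.11) with a limma adjusted p of 5.20e-05. Slc16a3 was lower by -0.68 (SE 0.10) with a limma adjusted p of 0.000162, and Pfkp by -0.48 (SE 0.07) with a limma adjusted p of 9.87e-05. Libraries of the depots did not overlap for Hk2, Slc16a3 and Pfkp. Pkm, at -0.26 with a limma adjusted p of 0.0518, and Eno1, at -0.25 with 0.183, did not overlap either but did not pass the test. Both passed it with array weights, with limma adjusted p of 0.0186 for Pkm and 0.0153 for Eno1, and with only the SVC libraries in the fit, with 0.0273 and 0.0222. Ldha did not overlap in the opposite direction, with all 3 IAT SVC libraries above all 3 EAT SVC libraries, and did not pass the test, with a limma adjusted p of 0.287. Lack of overlap is a description here too, without the share over all tested features. Pfkl, Aldoa, Gapdh and Pgk1 had differences between -0.08 and 0.04 whose sign changed with the scaling or with 1 library.

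In these SVCs macrophage markers were lower in IAT, with 6 of 7 called and a median log2 difference of -0.75, and neutrophil markers were lower in IAT with 4 of 4 called. T cell markers were higher in IAT SVCs with 4 of 4 called, with sums of 77.4 to 118.5 FPKM against 10.5 to 11.5 FPKM, and B cell markers with 4 of 4, at 147.4 to 225.2 FPKM against 36.8 to 40.2 FPKM. Skeletal muscle markers were higher with 6 of 7 called. Mesothelium markers summed to 326.4 to 388.2 FPKM in EAT SVCs and to 1.48 to 1.88 FPKM in IAT SVCs. Adipocyte markers were higher in IAT SVCs with 7 of 8 called and Schwann cell markers with 4 of 4, and markers of dividing cells were lower with 5 of 5. The part of this cell mixture in the lower Hk2, Pfkp and Slc16a3 of IAT SVCs was not tested.

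Whether the depot difference itself depended on the fraction was tested as an interaction, the IAT minus EAT difference in adipocytes minus that in SVCs. It was positive in all 10 genes and called in 5, Hk2, Eno1, Pkm, Pfkp and Slc16a3, where 14.7% of all tested features were higher and 17.8% lower. The median over the 10 genes was 0.46, against -0.04 over all features. The interaction was 1.497 (SE 0.15) for Hk2 with a limma adjusted p of 1.11e-05, 0.95 (SE 0.20) for Eno1 with 0.00264, 0.65 (SE 0.14) for Pkm with 0.00304 and 0.57 (SE 0.10) for Pfkp with 0.000641. For Slc16a3 it was 0.56 with a limma adjusted p of 0.0104, with adipocyte levels below 1 FPKM in both depots. The Slc16a3 call was lost with a pseudocount of 0.1, at 0.41 with a limma adjusted p of 0.285. Without the first EAT adipocyte library 8 of the 10 genes were called. All 7 macrophage markers had a negative interaction, with a median of -1.42, and 5 of 8 dissociation genes a positive one. Mesothelium markers had a positive interaction with 4 of 4 called and a median of 3.89. In IAT they summed to only 0.0888 to 0.106 FPKM in adipocytes and 1.48 to 1.88 FPKM in SVCs. Their interaction thus mostly restates the fraction difference in EAT, with a median of -4.00, against -0.06 in IAT. It was negative with 4 of 4 called for T cell, B cell and Schwann cell markers, at medians of -2.25 for T cells and -1.39 for Schwann cells. T cell markers summed to means of 0.1888 and 1.278 FPKM in EAT and IAT adipocytes, and 11.15 and 93.32 FPKM in SVCs. B cell markers summed to means of 1.407 and 5.146 FPKM in the adipocytes, and 38.34 and 178.7 FPKM in SVCs. At such adipocyte levels the added 1 FPKM shrinks log2 differences. The T and B cell interactions thus do not show that depot ratios differed between fractions. The interaction was also negative for 6 of 7 skeletal muscle markers, with a median of -1.93, and for 6 of 8 adipocyte markers, with a median of -1.03. Their part in the interaction was not tested.

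Genes around the pathway were compared between the fractions in the same fit, where 31.1% of all tested features were higher and 52.7% lower in EAT adipocytes and 29.8% were higher and 53.9% lower in IAT adipocytes. Of 3 glucose transporter genes, Slc2a4, the insulin-responsive carrier of fat and muscle, was higher in adipocytes, at 70.3 ± 2.5 and 87.6 ± 7.2 FPKM in EAT and IAT against 2.44 ± 0.16 and 4.23 ± 0.49 FPKM in SVCs. Slc2a1, the basal carrier, was lower, at 8.22 ± 1.1 and 11.9 ± 1.0 FPKM in adipocytes against 23.5 ± 1.2 and 35.1 ± 1.5 FPKM in SVCs, and Slc2a3 was lower as well. Slc2a1 was higher in IAT than in EAT in adipocytes, with a log2 difference of 0.49, and in SVCs, with 0.56. The uptake and phosphorylation genes Slc2a4 and Hk2 were thus both higher in adipocytes, and Slc2a1 and Hk1 both higher in SVCs. Hk2 was still read in SVCs, at means of 17.1 FPKM in EAT and 9.19 FPKM in IAT.

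Of 14 other glycolysis enzyme genes 12 were tested, and 3 were higher and 7 lower in adipocytes, in EAT and in IAT. The counts lay near the shares over all tested features. The median log2 differences were -0.76 and -0.67. Tpi1, which interconverts the trioses, was higher in adipocytes, at 287.5 ± 52 and 315.8 ± 20 FPKM against 74.7 ± 2.5 and 65.9 ± 4.8 FPKM, as was Ldhb. Hk1, Hk3 and Bpgm, which makes bisphosphoglycerate and is abundant in red cells, were lower. The 6 red blood cell markers summed to 868.1 to 1730 FPKM in adipocytes and to 17200 to 30080 FPKM in SVCs. Ldhb differed between depots in SVCs, lower in IAT by a log2 difference of -0.70 with a limma adjusted p of 4.10e-05, and its interaction was 1.09 with a limma adjusted p of 2.78e-05.

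Bifunctional enzymes make and break fructose 2,6-bisphosphate, the activator of phosphofructokinase. Of 5 genes in this list, which also holds the phosphatase Tigar, 4 were higher in adipocytes in each depot, but not the same 4. Pfkfb1, Pfkfb2 and Pfkfb3 were higher in both depots, Tigar in EAT and Pfkfb4 in IAT. In EAT Pfkfb4 had a log2 difference of -0.23 with a limma adjusted p of 0.0653, and each adipocyte library lay below each SVC library, but the sign turned with scaling, to 0.097 with median of ratios and 0.18 with quantiles, neither called. In IAT Tigar was at -0.08 with a limma adjusted p of 0.314, and it was called higher with median-of-ratios scaling, at 0.21 with 0.0154, and with quantile scaling, at 0.50 with 2.45e-05. The interaction of Pfkfb4 was 0.73 with a limma adjusted p of 0.00329. Pfkfb3 reached 259.5 ± 43 and 203.5 ± 12 FPKM in EAT and IAT adipocytes against 20.9 ± 1.2 and 19.2 ± 2.1 FPKM in SVCs. Pfkfb1 reached 21.0 ± 1.0 and 22.7 ± 2.7 FPKM against 0.612 ± 0.12 and 1.15 ± 0.23 FPKM.

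Of 5 tested genes of lactate transport and sensing, 3 were higher and 2 lower in adipocytes of each depot. Hcar1, the lactate receptor of adipocytes, measured 13.9 ± 3.6 and 19.7 ± 2.6 FPKM in adipocytes against 0.676 ± 0.037 and 1.23 ± 0.21 FPKM in SVCs. Slc16a7 measured 14.2 ± 1.4 and 16.4 ± 1.5 FPKM against 3.55 ± 0.45 and 2.28 ± 0.13 FPKM. Slc16a1 was lower in adipocytes, by log2 differences of -1.04 in EAT and -0.60 in IAT, and the IAT call was lost under median-of-ratios scaling, at -0.19 with a limma adjusted p of 0.172. Of the chaperones that carry these transporters to the membrane, Bsg was higher in adipocytes by 0.38 and 0.44, and Emb was lower by -3.05 and -4.52. Adipocytes thus held Ldha, Slc16a1, Slc16a7, Bsg and Hcar1 transcripts with little Slc16a3.

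Branches from the pathway were tested in the same way. In the pentose phosphate pathway 6 of 7 genes were higher and 1 lower in adipocytes of each depot, with median log2 differences of 2.10 in EAT and 2.01 in IAT. Tkt, the transketolase, reached 311.0 ± 40 and 453.4 ± 22 FPKM against 47.3 ± 5.1 and 44.1 ± 3.0 FPKM in SVCs, and was higher in IAT than in EAT adipocytes by 0.55 with a limma adjusted p of 0.00165. Of 6 tested genes of glycerol phosphate and gluconeogenesis, 5 were higher and 1 lower in EAT adipocytes, and 4 were higher and 1 lower in IAT adipocytes. Gpd1, which draws glycerol phosphate from the trioses, reached 388.3 ± 60 and 690.1 ± 24 FPKM against 3.03 ± 0.12 and 10.6 ± 0.19 FPKM. Gpd1 too was higher in IAT than in EAT adipocytes, by a log2 difference of 0.84. Of 14 tested HIF factors and targets outside glycolysis, 3 were higher and 9 lower in EAT adipocytes, and 2 were higher and 10 lower in IAT adipocytes, with most features lower over all that were tested too. Bnip3, a mitophagy receptor, and Vegfa, the endothelial growth factor, were the higher ones called in both depots, with log2 differences of 4.21 and 2.63 in EAT and 4.48 and 2.35 in IAT. Ddit4, a stress-induced inhibitor of mTORC1 signalling, was lower by -2.33 and -2.37.

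Across the 12 libraries 7 of the genes ran in parallel. Pearson correlations of log2 values among Hk2, Pfkl, Aldoa, Gapdh, Pgk1, Eno1 and Ldha lay between 0.80 and 0.996 over 21 pairs. Slc16a3 ran against these 7 with correlations from -0.97 to -0.83, and Pfkp with correlations from -0.82 to -0.52. Pkm was tied to none of the other 9 genes, with correlations from 0.09 to 0.39. These are descriptions over 12 libraries that fall into 4 groups, and the points of a pair share libraries, depth and the fraction contrast. Those of Eno1 leave out the overlapping Eno1b model.

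Among all other tested features with a mean of at least 5 FPKM, the closest to Aldoa was Tkt, at 0.999, followed by Taldo1, another pentose phosphate enzyme, and Mdh2, mitochondrial malate dehydrogenase. The closest to Ldha was Pmvk, at 0.998, then Suclg1 and Atp5c1, and the closest to Pfkl was Slc25a10, at 0.998, then Pex14 and Bckdha. Hk2 had Deptor at 0.988, then Oplah and Trib1. Eno1 had Hadha at 0.996, then Fam149b and Atat1, computed without the overlapping Eno1b model and so with the uncertainty of that split. Gapdh had Bloc1s1 at 0.987, then Ndufa11 and Ndufs8. Pgk1 had Fkbp2 at 0.982, then Psmb5 and Smdt1. Pfkp had Furin at 0.991, then Tmem132a and Adgra2, and Slc16a3 had Stx11 at 0.998, then Lhfp and Itga5. Pkm had the least similar neighbours, with Akr1b8 at 0.920, then Osgin1 and Calm3.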

How the data were processed

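The authors deposited 1 table per library with FPKM values and confidence bounds for each gene, made with TopHat and Cufflinks on GRCm38/mm10 per the submitters' processing notes; versions, the annotation and the handling of shared reads are not given in the sources used here. The 10 genes and the gene lists were chosen with earlier results of these data known. All 10 genes are named, listed genes are named when among the 5 smallest p of their list in a comparison, then with values for both depots, and likeness is given for the 3 nearest features. Tables were joined by symbol and locus, leaving out 9 features with a failed estimate. The 13175 features that reached 1 FPKM in 3 or more libraries were tested as log2(FPKM + 1) with limma 3.58.1 in R 4.3.3, fitting 4 group means with a trended prior, 5 contrasts and Benjamini-Hochberg adjustment at 0.05. On simulated data with 200 changed genes the adipocyte depot contrast recovered 61.2% of changes of 0.5 and 98.5% of changes of 1 on the log2 scale, and the interaction 31.3% and 89.6%. The simulation gave all groups 1 mean per gene and changed genes in IAT adipocytes only. In the real adipocyte depot contrast 10.3% of features were called higher and 27.3% lower, so these rates do not measure its sensitivity. Alternatives were other pseudocounts, filters, scalings, priors and weights, a replicate block, and leaving out each library. After seeing the data Eno1 was also summed with the overlapping Eno1b model. Some listed genes are not reported here and were left out of the lists and sums. The depth in fragments is not known. Precision is given by the deposited bounds.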

Additional observations from a re-analysis of the deposited data

Results flagged for a closer look

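For 5 genes the IAT minus EAT difference was not the same in adipocytes and SVCs by the interaction term of the limma fit. Hk2 had the largest interaction of the 10 genes, 1.497 on the log2(FPKM + 1) scale, with IAT above EAT in adipocytes and below EAT in SVCs in every library. Eno1 had an interaction of 0.95 and 0.76 when summed with the overlapping Eno1b model. Pkm had 0.65, and its fraction difference had opposite signs in the depots under FPKM scaling. Pfkp had 0.57 and Slc16a3 0.56, and both were lower in IAT SVCs while their adipocyte difference did not pass the test. Slc16a3 lay under 1 FPKM in adipocytes of both depots, and its interaction was 0.41 with a limma adjusted p of 0.285 with a pseudocount of 0.1.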

How the results depend on the processing

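Of 950 recomputed log2 differences of the 10 genes, over 50 differences and all alternatives, 894 kept their direction and their side of the threshold, 21 lost and 21 gained a call and 14 changed sign. With the replicate number as a block, the counts of higher genes were 6 in adipocytes between depots, 0 in SVCs between depots, 7 in EAT and 8 in IAT between fractions and 5 for the interaction, and those of lower genes 0, 3, 3, 2 and 0, as without it. Same-numbered libraries did not deviate together in every pair, with correlations from -0.31 to 0.37. With 3 libraries per group these correlations cannot settle whether the numbers pair libraries, and the labels do not say. Leaving out 1 library at a time, the genes higher in IAT adipocytes numbered 3 to 8, those higher by the interaction 5 to 8 and those lower in IAT adipocytes than SVCs 1 to 2. That last count was 1 with TPM, median-of-ratios or quantile scaling. In SVCs between depots 1 gene was higher with quantile scaling, and 5 were lower with array weights or with only the groups compared. Array weights gave 8 genes with a higher interaction. Sign changes of the 10 genes, all but 1 of them not called under the alternative, were as follows. Between depots in adipocytes Pgk1 ran from -0.036 without the second EAT library to 0.182 without the first. Between depots in SVCs Pfkl was -0.076 with TPM and -0.034 to 0.116 leaving out a library, Gapdh was -0.062 with TPM, -0.098 with quantile scaling and -0.011 to 0.112 leaving out a library, Aldoa was 0.038 with median-of-ratios and 0.016 with quantile scaling, and Pgk1 0.026 and 0.00031. With median-of-ratios scaling Pkm between fractions in EAT was 0.057 and Pfkp in IAT was 0.201, the latter with a limma adjusted p of 0.0104. Of the other named genes, Pfkfb4 between fractions in EAT was 0.097 with median-of-ratios and 0.183 with quantile scaling, and Tigar in IAT 0.208 and 0.4997, called with both. The cause was not tested.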

Other observations

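Gapdh is widely used as a reference in quantitative PCR. Here it was 1.39-fold higher in adipocytes than in SVCs in EAT and 1.58-fold higher in IAT, while other genes of the reference list went both ways. Of 10 tested reference genes, 4 rose and 5 fell from SVCs to adipocytes in EAT, and 2 rose and 6 fell in IAT. Over all tested features the shares that rose were 31.1% for EAT and 29.8% for IAT, and those that fell were 52.7% and 53.9%, so the counts of reference genes lie near them. Rplp0, a ribosomal stalk protein gene, was lower in adipocytes by log2 differences of -1.03 in EAT and -1.61 in IAT, and Ywhaz, a 14-3-3 protein gene, by -1.20 and -1.41. The level of a glycolysis gene relative to a reference would therefore differ by the reference chosen. Between depots Gapdh did not pass the limma test in adipocytes, with an adjusted p of 0.140, or in SVCs, with 0.810. In adipocytes Gapdh was called under median-of-ratios scaling, at a log2 difference of 0.37 with a limma adjusted p of 0.0482, with array weights, at 0.37 with 0.0184, and without the first EAT adipocyte library, at 0.31 with 0.026.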
